A study of Mus musculus with 26 samples.

Results

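A set of 9 transcription factor genes known from the urogenital ridge (Osr1, Osr2, Wt1, Tcf21, Emx2, Sall1, Pax2, Pax8 and Lhx1) was followed through 2 RNA-seq count tables of 41442 genes each. They were selected by gene symbol, and Sall1 was added to them because of its difference between XX and XY cells at E16.5. The differences of Wt1 and Tcf21 at E16.5 and in the uterus were also known by then. All 9 passed the filter on low counts among the 17858 genes tested in the fetal table. Among the 16195 genes tested in the uterine table were 7 of the 9, and the 2 left out were Pax2 and Lhx1.

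The study sorted red fluorescent mesenchymal cells from mouse reproductive tracts. The fetal table holds 12 libraries in 4 groups of 3, all of Gli1+ cells from embryos with Gli1-CreER; Rosa-Tomato: XX and XY mesonephroi at E14.5 and at E16.5. The uterine table holds 6 libraries from the female neonatal uterus at E19.5, 3 of Gli1+ cells from the same Cre line and 3 of Amhr2+ cells from Amhr2-Cre; Rosa-Tomato. Every dam received 1 mg of tamoxifen on E12.5 and on E13.5, so the Gli1 line marks cells in which Gli1, a target of hedgehog signalling, was active around those days, together with their descendants. The Amhr2 line carries a Cre that does not need tamoxifen, driven by the gene for the anti-Müllerian hormone receptor. The sources used here do not say that replicates came from separate embryos or litters, so the p-values measure the spread between these libraries, part of which may be technical. In sorted bulk RNA, fewer cells of a type and less RNA per cell cannot be told apart.

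The urogenital ridge is the strip of intermediate mesoderm from which kidney, gonad and the ducts of the reproductive tract arise. Osr1 is among the earliest genes switched on in that mesoderm, and Osr2 is its close relative. Wt1, a zinc finger factor, acts in kidney progenitors, podocytes, gonad and the mesothelium that lines the body cavity. Tcf21, a basic helix-loop-helix factor, is known from the stroma of kidney and gonad and from other visceral mesenchyme. Emx2, a homeodomain factor, is needed for kidney, gonad and genital tract, and Sall1, a zinc finger factor, is known from the mesenchyme that forms nephrons. Pax2, Pax8 and Lhx1 are best known from the epithelium of the nephric and Müllerian ducts and from early nephrons.

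Accessible chromatin at these genes was read from a list of regions shared by all samples. ATAC-seq, which cuts open chromatin with a transposase, was run on Gli1+ mesonephric cells in 4 groups of 2 samples, and the 71040 peaks were deposited as a single unified list with no column for a sample. All 9 genes had a peak within 1000 bp of an annotated start, as did 89.13% of the 14590 tested genes that could be placed. A peak covered a start itself at 5 of the 9 (Osr1, Osr2, Wt1, Tcf21 and Lhx1), against 81.26% of those genes. Sall1 (chromosome 8, 89027235 to 89044162, minus strand, mm10) held 3 peaks inside the gene. The nearest to its GENCODE start, at 89043536 to 89043685, lay in an intron of that annotation, 477 bp away. A RefSeq start of Sall1, at 89043512, lies just past this peak in the direction of transcription. Pax2 (chromosome 19, 44756045 to 44837871, plus strand) had its peak 303 bp from a GENCODE start. That peak, at 44755656 to 44755742, lies just before a RefSeq start at 44755752. Lhx1 (chromosome 11, 84518284 to 84525535, minus strand) and Tcf21 (chromosome 10, 22817281 to 22820174, minus strand) had peaks across their starts. Wt1 (chromosome 2, 105126529 to 105173616, plus strand) held 6 peaks in its body, the highest number among the 9 genes. The windows of sequence printed here show where the open bases fell at 4 of the genes. They are from RefSeq promoters on GRCm38.p6, the assembly of mm10, and 6 of the 9 genes matched that table (Osr1, Osr2 and Wt1 did not). Each is written 5′ to 3′ on the gene's strand, ends at the base before a RefSeq start or before the annotated transcript, and has the bases inside an ATAC-seq peak in capitals. Sall1 and Tcf21 are shown because the RNA results turn on them, and Pax2 and Lhx1 because their chromatin was open beside a start although hardly any of their RNA was counted.
Sall1, chr8:89043513-89043762, minus strand: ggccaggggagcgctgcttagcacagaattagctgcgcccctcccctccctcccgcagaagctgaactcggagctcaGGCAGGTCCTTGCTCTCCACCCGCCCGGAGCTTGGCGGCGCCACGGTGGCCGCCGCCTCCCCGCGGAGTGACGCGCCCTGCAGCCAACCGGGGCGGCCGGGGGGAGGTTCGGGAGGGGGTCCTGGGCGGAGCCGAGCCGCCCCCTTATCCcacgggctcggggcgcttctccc
Tcf21, chr10:22820175-22820393, minus strand: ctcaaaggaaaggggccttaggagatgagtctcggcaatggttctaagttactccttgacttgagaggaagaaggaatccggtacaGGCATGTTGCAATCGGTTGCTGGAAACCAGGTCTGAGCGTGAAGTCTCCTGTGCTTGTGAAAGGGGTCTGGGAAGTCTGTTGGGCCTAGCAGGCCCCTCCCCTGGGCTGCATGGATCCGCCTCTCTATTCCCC
Lhx1, chr11:84525536-84525784, minus strand: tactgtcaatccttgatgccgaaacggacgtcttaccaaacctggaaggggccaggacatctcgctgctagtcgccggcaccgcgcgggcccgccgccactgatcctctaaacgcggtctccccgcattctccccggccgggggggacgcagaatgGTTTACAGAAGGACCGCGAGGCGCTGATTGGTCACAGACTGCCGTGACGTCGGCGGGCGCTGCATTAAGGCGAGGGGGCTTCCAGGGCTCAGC
Pax2, chr19:44755502-44755751, plus strand: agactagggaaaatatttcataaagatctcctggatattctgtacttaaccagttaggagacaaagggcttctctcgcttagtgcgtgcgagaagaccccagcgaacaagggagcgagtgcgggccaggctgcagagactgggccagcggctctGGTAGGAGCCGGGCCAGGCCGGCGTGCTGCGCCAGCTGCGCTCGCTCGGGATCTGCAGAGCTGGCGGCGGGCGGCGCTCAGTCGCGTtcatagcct
The window of Sall1 holds its peak whole, 150 of 250 bases, while in Tcf21 133 of 219 bases and in Lhx1 93 of 249 bases were inside a peak that ran on past the start. In Pax2, 87 of 250 bases were open.

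Short motifs were searched on both strands of the 10 RefSeq windows of 300 bp that belong to the 6 matched genes. The core ACCACCC, bound by GLI factors, was in 0 of the 10 windows and in 4.61% of all 32851 mouse promoters of that length. GCGTGGG, a core bound by WT1 and EGR factors, was in 1 window, 124 bp before the innermost RefSeq start of Sall1 and outside its peaks, against 5.04% of all promoters. TAATTA, the homeodomain core, was in 1 window, at Emx2, against 5.29%. The E-box CAGCTG was in 1 window as well, inside the peak of Pax2 and 64 bp before the RefSeq start at 44755752, against 16.3%. These 3 matches lie at different genes and so overlap no other match, and a match of letters is only a description of the sequence.

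**Figure D1:**
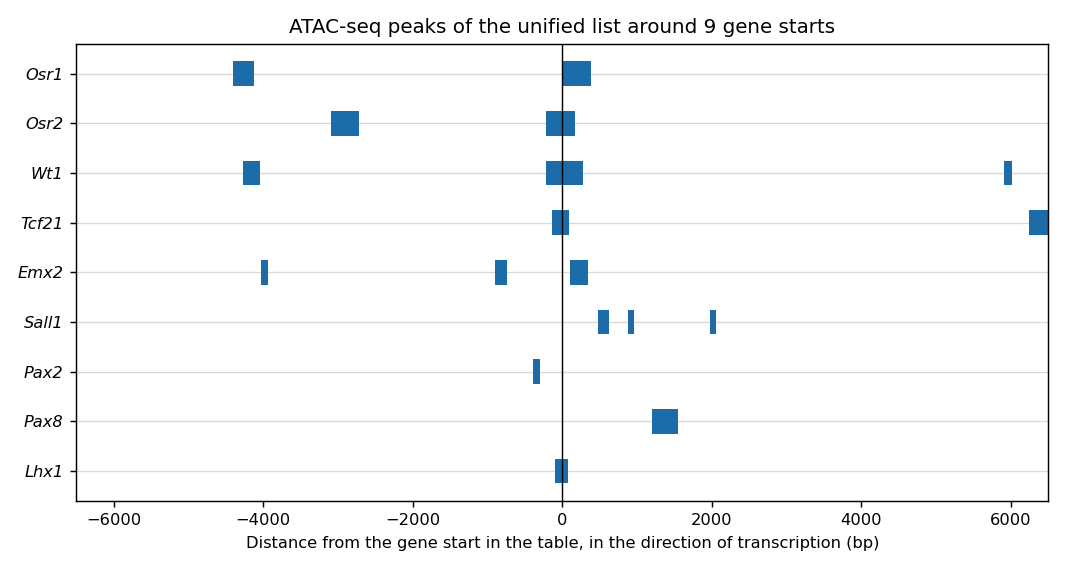
Positions of the deposited ATAC-seq peaks (blue bars) around the start of each gene, in bp along the direction of transcription, with 0 at the start of the gene in the annotation. Bars cross the start line at Osr2, Wt1, Tcf21 and Lhx1, the peaks of Sall1 all lie after it, and the Pax2 peak lies before it (the start covered at Osr1 is an upstream one).

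Levels are given as CPM, the counts scaled to each library's depth and composition, and between genes as CPM per kilobase of exon. Osr2 was the gene with the highest length-corrected level in the fetal table except in E16.5 XY cells, with means of 81.0 to 127 CPM per kilobase over the 4 groups. Tcf21 followed with 44.2 to 118 CPM per kilobase and was above Osr2 in E16.5 XY cells, where their means were 118 and 110. Wt1 had at most 37.8, Osr1 11.3 to 13.6 and Emx2 6.57 to 14.4 CPM per kilobase. Sall1 spanned the widest range, from 0.106 in E16.5 XY cells to 2.71 in E16.5 XX cells on the same scale. Pax8, Lhx1 and Pax2 had 0.222 CPM per kilobase or less in every fetal group, and in E16.5 XY cells Sall1 was below the 0.136 of Pax8. In the uterus Osr2 again led, and Sall1 reached 32.5 CPM per kilobase in Amhr2+ cells, beside 33.5 for Emx2 there. Per kilobase of coding sequence these were 43.1 and 132, so the distance between them depends on how length is counted. The 2 tables were normalised separately and their libraries made with different kits, so levels are not compared across them.

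**Figure D2:**
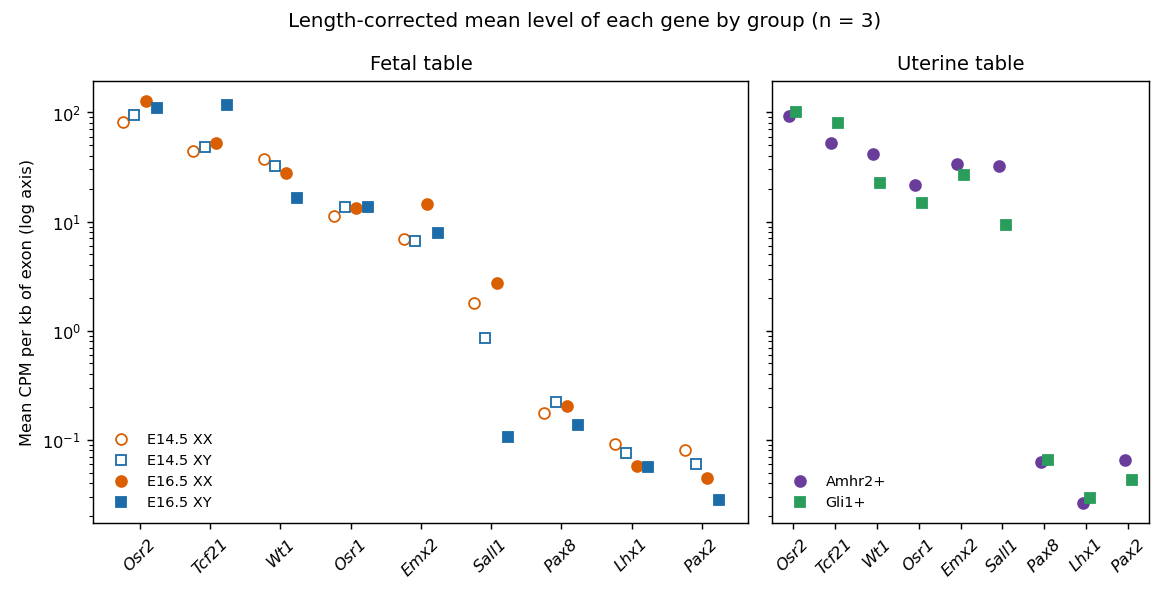
Mean CPM per kilobase of exon (log axis, n = 3) of each gene in the 4 fetal groups (left) and the 2 uterine groups (right), each table normalised by itself. Osr2, Tcf21 and Wt1 lie above 10 in every group, and Pax8, Lhx1 and Pax2 lie below 1 in every group.

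The first comparison asked how XX and XY Gli1+ cells differed at E14.5, when the ducts of both sexes are still present. Sall1 was the only gene of the 9 past the threshold. It measured 7.82, 9.6 and 10.6 CPM in the XX libraries and 4.08, 5.75 and 3.72 CPM in the XY libraries. Every XX library was above every XY library, with means of 9.35 ± 1.43 and 4.52 ± 1.08 CPM (SD, n = 3). The log2 fold change was 1.05 (SE 0.235, adjusted p 0.0161 by edgeR's quasi-likelihood test with Benjamini-Hochberg adjustment over all genes tested). The call was lost in 3 of the 6 fits that left out 1 library, where edgeR's adjusted p was 0.0606 without XX replicate 2, 0.0786 without XX replicate 3 and 0.0988 without XY replicate 3. Over all genes 6.28% were called at E14.5, 2.59% higher and 3.69% lower in XX cells. The median log2 fold change was 0.06 over the 9 genes and -0.01 over all genes. The mesothelium markers summed to 59.2 to 73.5 CPM in XX and 88.7 to 104 CPM in XY libraries at this age. The duct epithelium markers summed to 26.1 to 30.1 and 33.0 to 40.9 CPM, and the gonadal somatic markers to 44.8 to 47.3 and 48.1 to 56.4 CPM. Krt18 was highest in the former list, at 15.6 and 24.7 CPM on average, and Foxl2 in the latter, at 19.8 and 26.7 CPM. The defining genes were not lower in XX cells. Epcam averaged 3.03 and 2.76, Cdh1 0.603 and 0.603, Nr5a1 0.473 and 0.423, and Amh 3.11 and 2.22 CPM. The 5 nephron progenitor markers, carried by Eya1, summed to 10.6 to 13.3 CPM in XX and 7.87 to 9.68 CPM in XY libraries. Of that list Six2 averaged 0.0386 and 0.018 CPM. Meox1 was lower in XX cells, at 0.453 ± 0.162 against 1.18 ± 0.0592 CPM (SD, n = 3). The part of these cells in the difference was not tested.

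Wt1 was 218, 242 and 242 CPM in XX and 204, 207 and 190 CPM in XY cells at E14.5. Its groups did not overlap either, but the log2 fold change of 0.22 had an adjusted p of 0.0897 (edgeR). It passed with DESeq2, at an adjusted p of 0.0476, and when only these 6 libraries were fitted, at 0.0475. Osr2 measured 293 ± 29.5 CPM in XX and 345 ± 47.2 CPM in XY cells (SD, n = 3), with overlapping libraries and a 95% interval of the log2 fold change from -0.44 to -0.03. It missed the adjusted threshold at 0.197 with all libraries and passed at 0.0269 without XY replicate 1, by edgeR's test. Emx2 had 20.7 ± 2.57 and 19.7 ± 2.55 CPM, with an interval from -0.25 to 0.38. For Osr1 the interval was -0.76 to 0.21 and for Tcf21 it was -0.57 to 0.28, so differences of these sizes were not resolved.

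**Figure D3:**
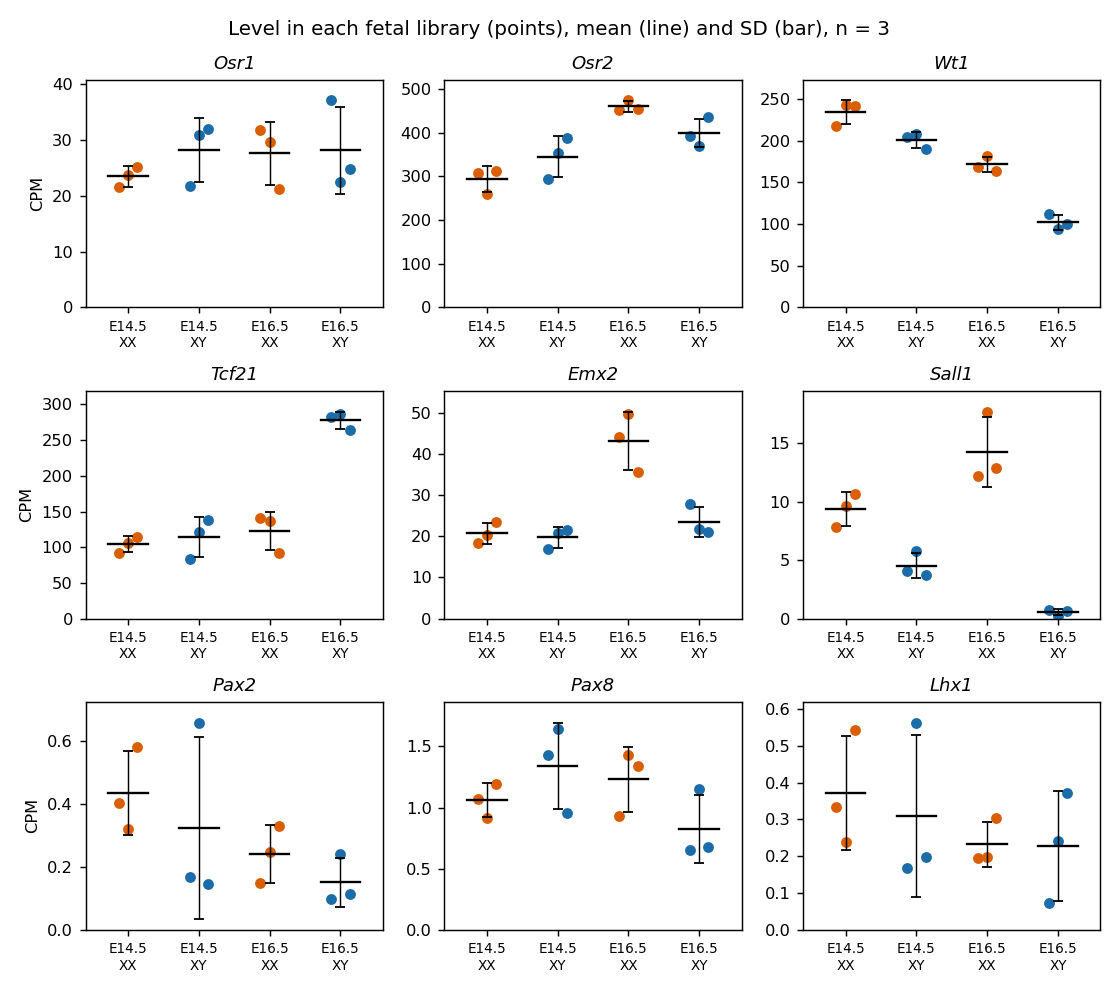
CPM of the 9 genes in each of the 12 fetal libraries (points), with the group mean (line) and SD (bar), n = 3 per group, XX in orange and XY in blue. In E16.5 XY cells all 3 libraries lie above all others for Tcf21 and below all others for Wt1 and Sall1.

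By E16.5, after the Müllerian duct of males and the Wolffian duct of females have begun to regress, more of all genes differed between the sexes. Over all genes 27.3% were called, against 6.28% at E14.5, and 3 of the 8 genes other than Sall1 were. Sall1, chosen for this very difference and so given without a test, measured 12.2, 17.7 and 12.9 CPM in XX cells. In XY cells it was down to 0.751, 0.240 and 0.679 CPM, which is 31, 9 and 42 counts. The means were 14.2 ± 3.0 and 0.557 ± 0.276 CPM (SD, n = 3), and the fitted ratio was 24.6, with a log2 fold change of 4.62 that came to 4.32 without XY replicate 2, the library with the fewest counts. Its relative Sall2 was 74.9 ± 10.8 CPM in XX and 62.0 ± 7.58 CPM in XY cells at E16.5 and was not called.

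Wt1 was 169, 182 and 164 CPM in E16.5 XX cells and 112, 94.6 and 99.8 CPM in XY cells. All XX libraries were above all XY libraries, with a log2 fold change of 0.75 (SE 0.0738, edgeR adjusted p 1.54e-06). Tcf21 ran the other way, at 140, 136 and 92.4 CPM in XX and 282, 287 and 264 CPM in XY cells. Its XX cells held less than its XY cells in every library, with a log2 fold change of -1.18 (SE 0.192, edgeR adjusted p 0.0011). Emx2 was 44.1, 49.7 and 35.5 CPM in XX and 27.7, 21.7 and 21.0 CPM in XY cells, again without overlap. It was higher in XX cells, with a log2 fold change of 0.88 (SE 0.141, edgeR adjusted p 0.000319). Osr2, at 460 ± 12 and 400 ± 33.0 CPM, had separated groups but an adjusted p of 0.135 (edgeR) and an interval from -0.00 to 0.41. Osr1 had 27.5 ± 5.55 and 28.1 ± 7.84 CPM, and its interval ran from -0.50 to 0.44.

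In all, 3 of the 8 genes other than Sall1 were called at E16.5, Wt1 and Emx2 higher and Tcf21 lower in XX cells. The 37.5% called among the 8 genes was near the 27.3% called over all genes, 13.2% higher and 14.1% lower. The median log2 fold change was 0.40 over the 8 genes and 0.01 over all genes. The differences of Wt1 and Tcf21 at this age and in the uterus were already known when the genes were selected, so their calls are not independent support. Markers of other cells moved with sex too. At E16.5 the summed level of 6 mesothelium markers was 29.4 to 70.8 CPM in XX and 72.8 to 99.0 CPM in XY libraries, and that of 8 duct epithelium markers was 14.7 to 18.6 and 22.8 to 23.6 CPM. The 6 podocyte markers summed to 134 to 184 CPM in XX and 203 to 220 CPM in XY libraries, with the defining Nphs1 at 0.0655 and 0.0404 CPM on average. The 8 markers of gonadal somatic cells, mostly Foxl2, summed to 45.7 to 52.2 and 64.3 to 72.0 CPM. All 4 sums were lower in XX cells, where Wt1 was higher. The 5 nephron progenitor markers, carried by Eya1, summed higher there, at 12.8 to 16.8 against 8.79 to 11.6 CPM. Six2 was near 0 in both sexes. Of that list Meox1 was lower in XX cells, at 0.306 ± 0.0133 against 1.63 ± 0.775 CPM (SD, n = 3). The part of all these cells in the differences was not tested.

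Neighbouring transcripts limit what these counts can separate, since the fetal libraries did not keep strand. Tcf21 lies wholly inside an annotated gene of the opposite strand that is known only by a clone name, which had 7.18 ± 1.2 CPM in E16.5 XX and 18.6 ± 0.646 CPM in E16.5 XY cells. Emx2 overlaps its antisense gene Emx2os by 264 bp, and Emx2os had 19.6 ± 0.710 and 7.91 ± 0.502 CPM in the same groups. Wt1os starts 18 bp from Wt1 on the other strand and had 18.3 ± 1.67 and 9.93 ± 1.41 CPM. Each of these partners, looked up after the values of the 9 genes were seen, was higher in the sex in which its neighbour was higher.

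**Figure D4:**
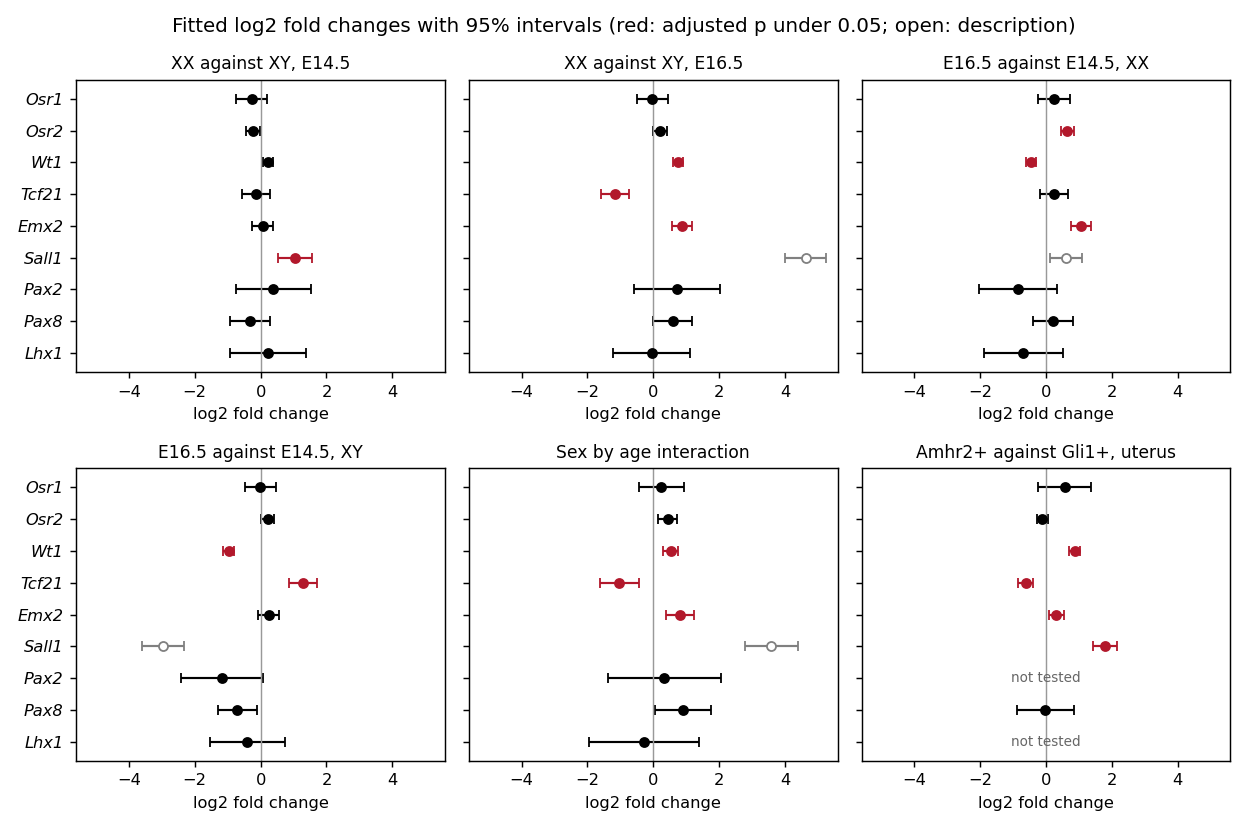
Fitted log2 fold changes with 95% intervals for the 9 genes in 5 fetal contrasts and the uterine contrast, in red where the adjusted p was under 0.05, open where the value is a description only (Sall1 with E16.5 libraries). Wt1 and Tcf21 lie on opposite sides of 0 in each panel in which both are red.

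The change from E14.5 to E16.5 was followed within each sex. Wt1 went down in both. In XX cells it went from 234 ± 14.2 to 172 ± 9.49 CPM (SD, n = 3), a log2 fold change of -0.45 (SE 0.0734, edgeR adjusted p 0.000204). In XY cells it went from 200 ± 9.49 to 102 ± 9.02 CPM, a log2 fold change of -0.97 (SE 0.0740, edgeR adjusted p 1.37e-07). In neither sex did an E16.5 library reach the lowest E14.5 library.

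Osr2 and Emx2 rose with age in XX cells. Osr2 was 309, 259 and 312 CPM at E14.5 and 453, 474 and 453 CPM at E16.5, with a log2 fold change of 0.65 (SE 0.0967, edgeR adjusted p 8.52e-05). Emx2 was 18.4, 20.2 and 23.5 CPM at E14.5 and reached 44.1, 49.7 and 35.5 CPM at E16.5, with a log2 fold change of 1.06 (SE 0.144, edgeR adjusted p 5.91e-05). Neither gene was called in XY cells, where the intervals of the log2 fold change were 0.01 to 0.42 for Osr2 and -0.07 to 0.55 for Emx2. Tcf21 rose in XY cells instead. It was 84.1, 121 and 138 CPM at E14.5 and 282, 287 and 264 CPM at E16.5, with a log2 fold change of 1.28 (SE 0.192, edgeR adjusted p 0.000756). In XX cells its libraries of the 2 ages overlapped, with an interval from -0.18 to 0.67. Sall1, as a description, had a log2 fold change with age of 0.61 in XX cells and of -2.97 in XY cells, the latter -2.67 without E16.5 XY replicate 2. Osr1 was called in neither sex, with intervals from -0.25 to 0.72 in XX and from -0.48 to 0.46 in XY cells.

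With age, 3 of the 8 genes were called in XX cells, 2 up and 1 down, where 39.6% of all genes were called, 21.0% up and 18.6% down. In XY cells 2 of the 8 were called, 1 up and 1 down, beside 23.3% of all genes, 13.1% up and 10.2% down. The count in XY cells was 4 without E14.5 XY replicate 3, when Osr2 (adjusted p 0.0489) and Pax8 (0.0382) also passed edgeR's test. The 37.5% of the 8 genes called in XX cells and the 25% called in XY cells were near those shares of all genes. The median log2 fold change was 0.22 over the 8 genes and 0.00 over all genes in XX cells, and -0.21 and -0.01 in XY cells. Over all genes both splits turned with the scaling. In XX cells 3746 rose and 3322 fell as fitted, and 3130 rose and 3924 fell when counts were scaled by library size alone. In XY cells 2340 rose and 1828 fell as fitted, and 1847 rose and 2641 fell with library size alone.

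An interaction term tested for a shift in the sex differences from E14.5 to E16.5. Sex differences of Wt1 and Emx2 moved towards XX between E14.5 and E16.5, by 0.52 (SE 0.104, edgeR adjusted p 0.0036) and 0.82 (SE 0.202, edgeR adjusted p 0.0185) on the log2 scale. That of Tcf21 moved towards XY, by -1.03 (SE 0.270, edgeR adjusted p 0.0363). Those 3 of 8 genes stand beside 10% of all genes called, 4.66% positive and 5.36% negative, and the median interaction was 0.38 over the 8 genes and 0.02 over all genes. The term of Wt1 passed under each of 17 alternatives. That of Tcf21 passed in 9 of 17 and was lost with scaling by library size alone (adjusted p 0.0559), with no filter on low counts (0.106) and without any of 6 single libraries (XX replicates 2 and 3 and XY replicate 2 at E14.5, and the 3 XY libraries at E16.5; up to 0.0915), by edgeR's test. Emx2 passed in 10 of 17 and was lost, at adjusted p up to 0.0578 by edgeR's test, without XX replicate 1 or 2 or XY replicate 2 or 3 of E14.5 and without XX replicate 2 or XY replicate 2 or 3 of E16.5. Osr2 just missed, with 0.44 and an adjusted p of 0.0542 by edgeR's test. It passed at 0.0348 with the replicate number as a block, and at 0.0075 without E14.5 XY replicate 1. For Sall1 the same term was 3.58, given as a description. The terms of Wt1 and Tcf21 use the E16.5 libraries, in which their sex differences were known when the genes were selected.

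Across the 12 fetal libraries some genes followed the same course. As a measure of likeness the root mean square difference of centred log2 CPM was taken over those libraries, against 10456 genes with a mean of at least 10 CPM in a group, with no test. The gene nearest to Sall1 was Amhr2, the anti-Müllerian hormone receptor, at 0.805, followed by Slitrk2 and Gria2 at 0.977 and 1.07. Sall1 was chosen for its sex difference at E16.5, and the E16.5 libraries are among the 12. Its nearest genes are therefore a description and no independent support. Wt1 was nearest to Scube3 at 0.108, to its neighbour Wt1os at 0.115 and to Tnfrsf19 at 0.120. Emx2 was nearest to the homeobox gene Hoxb5 at 0.0633, then Larp6 and Naprt at 0.125 and 0.132. Tcf21 was nearest to Ppargc1a at 0.181, then Mr1 and Rem1 at 0.218 and 0.227. For Osr2 the nearest were Radil at 0.0601, Gabarap at 0.0741 and Slc25a23 at 0.0863, and for Osr1 they were Ccdc84 at 0.122, RP23-5A19.7 at 0.138 and Trp53rka at 0.142. A gene that varies little lies close to many others: the log2 levels of Osr1 and Osr2 had SDs of 0.26 and 0.27 over the 12 libraries, against 1.84 for Sall1, and the libraries share whatever differs in depth and composition. The nearest gene to both Pax2 and Lhx1 was Epop, at 0.414 and 0.261, and to Pax8 it was Rarb, at 0.272; these rest on few counts.

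In the neonatal uterus Amhr2+ cells were compared with Gli1+ cells. Of the 7 tested genes 4 differed: Sall1, Wt1 and Emx2 were higher in Amhr2+ cells and Tcf21 was lower. The differences of Wt1 and Tcf21 were known when the genes were selected, so their calls here are not independent support. Sall1 measured 163, 150 and 200 CPM in Amhr2+ and 58.4, 40.7 and 49.3 CPM in Gli1+ libraries. The lowest Amhr2+ library was far above the highest Gli1+ library, and the log2 fold change was 1.79 (SE 0.153, edgeR adjusted p 0.000255). Wt1 was 253, 237 and 279 CPM in Amhr2+ and 138, 142 and 142 CPM in Gli1+ libraries. Its groups were as clearly apart, with a log2 fold change of 0.87 (SE 0.0704, edgeR adjusted p 0.000115). Tcf21 was 126, 125 and 116 CPM in Amhr2+ and 208, 196 and 160 CPM in Gli1+ libraries. All Amhr2+ libraries were below all Gli1+ libraries, with a log2 fold change of -0.62 (SE 0.0972, edgeR adjusted p 0.00282).

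Emx2 was 107, 108 and 86.1 CPM in Amhr2+ and 83.9, 84.4 and 73.6 CPM in Gli1+ libraries. The groups were separated by little, and the log2 fold change of 0.32 (SE 0.0989, edgeR adjusted p 0.0484) was past the threshold only narrowly. It was lost without any 1 library other than Amhr2+ replicate 3, at adjusted p from 0.0708 to 0.154 by edgeR's test. Osr1 was 51.3, 59.3 and 24.2 CPM in Amhr2+ and 27.0, 35.4 and 29.0 CPM in Gli1+ libraries. The third Amhr2+ library fell below all the Gli1+ libraries while the other two lay above them, and the log2 fold change of 0.57 was not called (edgeR adjusted p 0.267, interval -0.24 to 1.37). Without Amhr2+ replicate 3 it was 0.86, with an edgeR adjusted p of 0.00272. Osr2 had 337 ± 19.8 and 366 ± 24.8 CPM (SD, n = 3), overlapping, with an interval from -0.28 to 0.05.

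**Figure D5:**
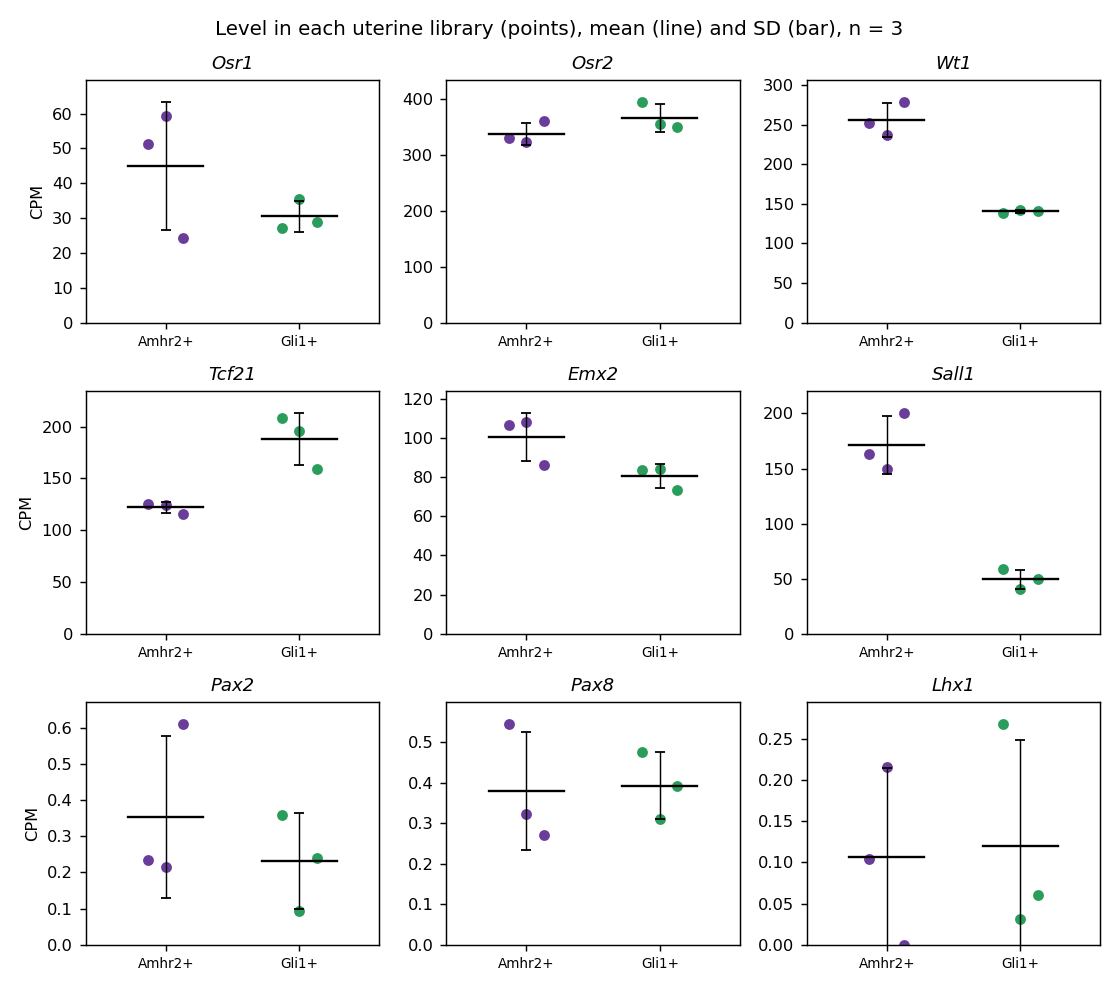
CPM of the 9 genes in each of the 6 uterine libraries (points), with the group mean (line) and SD (bar), n = 3 per group, Amhr2+ in purple and Gli1+ in green. The groups are apart for Sall1, Wt1, Tcf21 and, narrowly, Emx2, and Osr1 has 1 low Amhr2+ library.

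Over all genes 23.9% were called in the uterus, 10.1% higher and 13.7% lower in Amhr2+ cells, and the median log2 fold change was 0.32 over the 7 genes and -0.00 over all genes. That split turned with the scaling, from 1642 higher and 2224 lower to 2849 higher and 1640 lower with library size alone, while the 4 called genes kept their direction and their call. The 8 duct epithelium markers summed to 51.3 to 52.9 CPM in Amhr2+ and 18.4 to 31.2 CPM in Gli1+ libraries, with the defining Epcam at 6.61 and 3.12 CPM. The 6 mesothelium markers summed to 80.7 to 105 and 52.1 to 98.3 CPM. The 8 gonadal somatic markers, mostly Foxl2, summed to 72.7 to 121 and 63.0 to 66.0 CPM, with the defining Nr5a1 at 0.0353 and 0.0101 CPM. The sum of the 7 mesenchyme markers, Tcf21 among them, was lower in Amhr2+ cells, at 17660 to 18727 against 39212 to 44474 CPM. It came mainly from Col1a1, at 10944 against 21528 CPM on average. Pdgfra, the other defining marker of that list, was 579 ± 42.6 and 564 ± 40.4 CPM (SD, n = 3). The 5 nephron progenitor markers, carried by Eya1, also summed lower, at 10.5 to 16.6 against 38.1 to 42.1 CPM. Six2 was near 0 in both. The 6 podocyte markers summed to 119 to 124 against 166 to 193 CPM, lower in the Amhr2+ cells that held more Wt1, with the defining Nphs1 at 0 in all Amhr2+ libraries. The part of other cells in the uterine differences was not tested. Emx2os, Wt1os and the gene around Tcf21 were 38.0 ± 3.73, 33.0 ± 4.93 and 8.6 ± 1.09 CPM in Amhr2+ cells, against 23.6 ± 0.321, 14.8 ± 1.67 and 15.0 ± 2.81 CPM in Gli1+ cells, each on the side of its neighbour.

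The 3 duct factors were hardly counted in any group. Pax8 had 23 to 70 counts per fetal library and group means of 0.827 to 1.34 CPM, and 8 to 21 counts per uterine library with means of 0.380 ± 0.145 CPM in Amhr2+ and 0.393 ± 0.0835 CPM in Gli1+ cells. Pax2 had 4 to 28 counts per fetal and 3 to 18 per uterine library. Lhx1 had 3 to 24 counts per fetal library and 0 to 9 in the uterus, where the library with 0 counts allows up to 0.102 CPM. Neither of the last pair had a group mean above 0.433 CPM, and 3 counts correspond to 0.0485 to 0.126 CPM in a fetal library. None of the 3 was called in a fetal contrast, by edgeR's test or by DESeq2. Before adjustment Pax8 had edgeR p-values of 0.0488 between the sexes at E16.5, 0.0364 for the interaction and 0.0235 for age in XY cells, and the other two had none under 0.05. The intervals were wide, for XX against XY at E16.5 from -0.59 to 2.03 for Pax2, 0.00 to 1.19 for Pax8 and -1.24 to 1.13 for Lhx1. Values within those bounds could not be told apart at this depth. Pax8 passed in some fits that left out 1 library: beside the case given above, its change with age in XY cells (adjusted p 0.0245) and its sex difference at E16.5 (0.0402) passed edgeR's test without E16.5 XY replicate 2. The duct epithelium's own defining markers were low in the fetal groups as well, Epcam at 2.76 to 3.42 CPM and Cdh1 at 0.414 to 0.603 CPM on average.

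Other genes of ridge, duct, nephron and stroma, a list of 37, gave the setting, and 28 were tested in the fetal and 25 in the uterine table. At E14.5, 6 of the 28 were called between the sexes, 3 higher and 3 lower in XX cells, beside 6.28% of all genes. The 3 higher ones belong to nephron progenitors and their induction: Itga8, an integrin subunit of metanephric mesenchyme, at 485 ± 10.3 and 337 ± 48.6 CPM, Wnt4 at 231 ± 31.3 and 167 ± 7.22 CPM, and Eya1 at 10.6 ± 1.55 and 7.02 ± 1.01 CPM (SD, n = 3). The lower ones were Gata4, Meox1 and Gata3, all under 2 CPM in both sexes. At E16.5, 16 of the 28 were called, 8 in each direction, beside 27.3% of all genes. Gfra1, a receptor for GDNF, was 3.89 ± 0.239 CPM in XX and 0.807 ± 0.190 CPM in XY cells, with a log2 fold change of 2.29 (edgeR adjusted p 3.04e-07). Its ligand Gdnf was the reverse, 4.46 ± 0.401 and 12.1 ± 1.11 CPM, with a log2 fold change of -1.44 (edgeR adjusted p 3.41e-05). Bmp7 and Wnt4 were higher in XX cells, with log2 fold changes of 1.18 and 0.89, and Gata4 and Meox1 were lower, with -2.49 and -2.40. Among the 28 were 6 genital ridge genes, of which 1 was higher and 4 lower, and 9 genes of nephron progenitors and their induction, of which 5 were higher and 2 lower. The interaction was called for 7 of the 28, beside 10% of all genes, among them Gfra1 at 2.30, Gata3 at 1.39, Bmp7 at 1.19, Gdnf at -1.60 and Lhx9 at -1.26.

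With age 19 of the 28 were called in XX cells, 9 up and 10 down, and 13 in XY cells, 5 up and 8 down, beside 39.6% and 23.3% of all genes. Foxd1, a factor of renal stroma, fell in both sexes, with log2 fold changes of -2.49 and -2.21, and so did Wnt4, with -1.11 and -1.53. Tbx18 rose in both, with 1.91 and 1.86. Foxc2 and Bmp7 also fell in both, with -1.52 and -0.53 in XX cells and -0.99 and -1.72 in XY cells. Gdnf and Lhx9 rose in both, with 0.77 and 0.82 in XX cells and 2.37 and 2.08 in XY cells. Gfra1 rose in XX cells, with 1.46, and fell in XY cells, with -0.84. In the uterus 16 of the 25 were called, 3 higher and 13 lower in Amhr2+ cells, beside 23.9% of all genes. Higher were Bmp7, Robo2, a Slit receptor, and Cbx2, with log2 fold changes of 1.06, 0.88 and 0.42. The lower ones included Tbx18 (0.0818 ± 0.0416 against 5.98 ± 2.54 CPM) and Lhx9 (0.0878 ± 0.0818 against 1.56 ± 0.567 CPM). Of the relatives of the 9 genes, Sall2 was at 59.8 to 78.1 CPM in all 6 groups, and Sall4, Pax5 and Lhx5 had means no higher than 0.121 CPM in any.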

How the data were processed

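RNA-seq was run on 18 libraries of sorted cells and ATAC-seq on 8 samples, grouped by their titles. The deposited RNA values are unnormalised counts, 1 row a gene and 1 column a library, with 0 blank rows, 0 columns without a sample and 64 repeated symbols in each table. STAR 2.5, featureCounts, Subread 1.5.0-p1, Bowtie 1.2, SAMtools 1.3.1, Picard, bedtools 2.24.0, MACS2 2.1.1 and mm10 are named per the submitters' processing notes, with no parameters, and the strand setting of the counting is not given in the sources used here. The fetal kit was non-stranded and the uterine kit stranded, per the labels' protocols. Peaks are a list of positions deposited by the authors, without a score or a sample. Library totals were 23382983 to 64602477 counts in the fetal and 28709191 to 37541045 in the uterine table.

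Each table was fitted by itself with edgeR 4.0.16 in R 4.3.3 (limma 3.58.1): filterByExpr by group, TMM scaling, a robust quasi-likelihood fit over all groups of the table, and Benjamini-Hochberg adjustment over all genes tested, with a threshold of 0.05. CPM use TMM-scaled library sizes. The scripts were tested on simulated data. Exon and coding lengths and transcript starts came from the GENCODE annotation of mm10. All 9 genes were named in each contrast. From the list of 37 further genes, up to 3 per direction and contrast were named, those with the largest change among genes past the threshold with at least 1 CPM in the higher group. A gene that this rule picked is not reported here. The members, lists and rules were chosen with earlier results of these data known, so no pattern seen before counts as independent support. Sall1 contrasts with E16.5 libraries carry no test.

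Same-numbered XX and XY libraries of E16.5 deviated together from their group means (r = 0.284, 0.115 and 0.396 across genes). Each passed the limit of 0.1 set for pairs, although nothing in the labels ties them. The differently numbered E16.5 pair of XX replicate 2 and XY replicate 1 also passed it, at r = 0.108. The other same-numbered pairs did not all pass, with r of 0.0725, 0.0504 and 0.0508 at E14.5 and of 0.00176, 0.221 and 0.243 in the uterus. The main fits paired no libraries. With the replicate number as a block, 5901 genes were called between the sexes at E16.5 in place of 4883. The block gave 2592 genes for the interaction in place of 1790. Alternatives were scaling by library size or by RLE, DESeq2 1.42.0, no filter on low counts, the replicate block, only the 6 libraries compared, and leaving out each library.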

Additional observations from a re-analysis of the deposited data

Results flagged for a closer look

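The sex differences of 3 genes, those of Wt1, Tcf21 and Emx2, were not the same at E14.5 and at E16.5 by the test of the interaction term in edgeR. For Wt1 the log2 difference between XX and XY cells was larger by 0.523 at E16.5 (adjusted p 0.0036), with values of 0.22 and 0.75 at the 2 ages. For Emx2 it was larger by 0.816 (adjusted p 0.0185), with 0.06 and 0.88. For Tcf21 the term was -1.03 (adjusted p 0.0363), with -0.14 and -1.18. All 3 XX libraries were above all 3 XY libraries of E16.5 for Wt1 and Emx2 and below them for Tcf21. The term of Wt1 passed under each of the 17 alternatives, that of Emx2 under 10 (adjusted p up to 0.0578) and that of Tcf21 under 9 (up to 0.106). The E16.5 sex differences of Wt1 and Tcf21 were known when the genes were selected.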

How the results depend on the processing

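Over 657 alternative values of the log2 fold changes, 618 kept their direction and side of the threshold, 23 lost a call, 14 gained one, 2 (Sall1 without E16.5 XY replicate 2) moved by more than their error and 0 reversed a called direction. At E14.5, 2 of the 9 genes were called in place of 1 with DESeq2 and 2 when only the 6 libraries were fitted, Wt1 joining Sall1 in both. Leaving out 1 library gave 0 to 2 genes at E14.5 (0 without XX replicate 2, XX replicate 3 or XY replicate 3, 2 without XY replicate 1). It gave 1 to 4 for the interaction (1 without XX replicate 2 or XY replicate 2 of E14.5 or XY replicate 2 of E16.5) and 2 to 4 for age in XY cells (4 without E14.5 XY replicate 3). In the other contrasts the count stayed within 1.5 times. With the replicate block the counts were 1 at E14.5, 3 at E16.5, 4 for the interaction, 3 and 2 for age in XX and XY cells and 4 in the uterus. Apart from the interaction of Osr2, given above, the block changed no call. Over all genes, 1121 were called at E14.5, against 578, 660 and 653 without XX replicate 1, 2 or 3 and 686 and 553 without XY replicate 2 or 3. For the interaction 1790 were called, against 2687 without E16.5 XY replicate 1, and in the uterus 3866, against 1949 without Amhr2+ replicate 1 and 2521 without Gli1+ replicate 1. The cause was not tested. Peaks lay on a start of 5 genes in place of 9 within 1000 bp, and of 9 within 5000 bp. Osr2 had the highest level of the 9 genes in 5 of 6 groups per kilobase of exon and also per kilobase of coding sequence. Depth limits Pax2, Pax8 and Lhx1, at 70 counts or fewer in every library.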
